A study of Homo sapiens with 9 samples.

Results

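The 39 genes described here form the amino acid arm of the integrated stress response: ATF4 and 4 related transcription factors, 5 stress effectors, 6 enzymes of serine synthesis and mitochondrial folate metabolism, 6 other amino acid enzymes, 6 amino acid transport genes, and 11 genes that charge tRNAs or export them from the nucleus. They were chosen by name for these roles and not by a threshold on their levels. All 39 were found among the 60676 genes of the count table, and all 39 were among the 15500 genes with enough fragments to be tested.

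ATF4 is a basic leucine zipper factor whose mRNA is translated efficiently when the initiation factor eIF2 is phosphorylated, which happens when amino acids run short, when unfolded protein collects in the endoplasmic reticulum, or when mitochondria are disturbed. Together with C/EBP factors it binds a composite element and drives genes that make, import and charge amino acids, along with feedback genes such as TRIB3 and PPP1R15A. In lung adenocarcinoma with a defective KEAP1 gene, as in A549 cells, the oxidative stress factor NRF2 stays active and is known to raise ATF4 and, through it, the serine synthesis genes. Since ATF4 is largely controlled by translation, its mRNA level does not give its protein level.

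RNA was sequenced from A549 cells, an established human lung adenocarcinoma line, that had been transduced with a lentiviral hairpin against the long noncoding RNA LITATS1, shLITATS1-1 or shLITATS1-2, or with the non-targeting hairpin shNT. Each of the 3 groups held 3 libraries, called biological replicates in the design text; whether they came from separate transductions is not said, so each p-value reflects only how these libraries vary. All cells, shNT included, took the virus overnight, grew for 2 days, were then selected with puromycin (given in the labels as 1 ng/mL) and were harvested 3 days later.

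The libraries held 19610514 to 19989652 gene fragments each, and the target was reduced as labelled, with 57 to 72 LITATS1 fragments per library with shLITATS1-1, 56 to 69 with shLITATS1-2 and 274 to 328 with shNT. Of the A549 markers, the 6 epithelial genes (KRT8, KRT18, KRT7, KRT19, EPCAM and CDH1) were all detected, and summed to 9042 to 9215 CPM with shLITATS1-1, 5207 to 5521 CPM with shLITATS1-2 and 5511 to 5795 CPM with shNT. KRT8, KRT18 and KRT7 made up most of each sum, and EPCAM was low (3.89 to 5.74 CPM). KRT19 had 108 to 113 CPM with shLITATS1-1, 156 to 167 with shLITATS1-2 and 78.5 to 83.6 with shNT. CDH1 had 33.0 to 34.2, 24.7 to 27.1 and 34.7 to 36.5 CPM in the same order. Among 6 alveolar type II genes, SFTPC, SFTPB, SFTPA1, SFTPA2 and NKX2-1 each averaged at most 0.193 CPM in every group (CPM here means fragments scaled to the library total after TMM correction for composition). NAPSA, the sixth, was detected at means of 1.14 CPM with shLITATS1-1, 0.658 CPM with shLITATS1-2 and 0.53 CPM with shNT, and it was the gene of this list with enough fragments to be tested (log2 fold change 1.098 with shLITATS1-1, called higher, and 0.31 with shLITATS1-2, not called). Markers of other cell types were low: the immune list of 5 genes summed to 1.84 to 3.05 CPM with shLITATS1-1, 5.04 to 6.03 with shLITATS1-2 and 1.23 to 1.64 with shNT, with 3 of the 5 at 0 in each group. CD14, a gene of monocytes, carried that difference, with means of 2.49 CPM with shLITATS1-1, 5.36 CPM with shLITATS1-2 and 1.40 CPM with shNT. The fibroblast list of 5 genes summed to 5.32 to 5.42 CPM with shLITATS1-1, 1.83 to 2.16 CPM with shLITATS1-2 and 2.81 to 3.18 CPM with shNT, and the endothelial list of 4 genes to at most 0.869 CPM in any library. Within the fibroblast list, LUM, a matrix proteoglycan gene, was higher with shLITATS1-1 (means of 3.59 CPM with shLITATS1-1, 0.545 CPM with shLITATS1-2 and 0.461 CPM with shNT), and THY1, a surface glycoprotein gene, was lower with both hairpins (means of 1.12 CPM with shLITATS1-1, 0.93 CPM with shLITATS1-2 and 2.29 CPM with shNT). The part of these levels in the results below was not tested.

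Most of the 39 genes fell with shLITATS1-1, while fewer than that fell with shLITATS1-2 and the share called there was near that of all genes. With shLITATS1-1, 27 of the 39 genes fell, 5 rose and 7 did not pass (quasi-likelihood test of edgeR, threshold 0.05 after Benjamini-Hochberg adjustment over all tested genes), where 30.5% of all tested genes were called lower, 30.5% higher and 61% in either direction. Their median log2 fold change was -0.33, against -0.0070 for all tested genes. With shLITATS1-2, 17 fell, 6 rose and 16 did not pass, with 28.9% of all genes called lower, 27.8% higher and 56.7% in either direction. The median was -0.067, against -0.0040 for all genes. The share of the 39 genes called was thus well above the background with shLITATS1-1 (82.1%) and near it with shLITATS1-2 (59.0%). Sizes of change on the log2 scale, taken without sign, had a median of 0.37 for the 39 with shLITATS1-1, against 0.28 for all tested genes. With shLITATS1-2 this unsigned median was 0.18, below the 0.25 of all tested genes. With shLITATS1-1 and a minimum of 50 counts in place of 10, 31 of 37 were called, and 8412 of 12248 genes in all. The part of expression level in these shares was not tested. Scaling by library size alone raised the signed median of all genes by 0.113 with shLITATS1-2. It gave 15 higher and 13 lower of the 39 in that comparison, with a signed median of 0.046, and 6054 higher and 2968 lower of all genes. A filter of 50 counts in place of 10 gave 11 higher and 17 lower of 37 with shLITATS1-2. Small changes with shLITATS1-2 are therefore given relative to the TMM scaling. The 3 shLITATS1-1 libraries lay wholly above or below the 3 shNT libraries for 33 of the 39 genes (5 above and 28 below), where 64.2% of all tested genes did. For shLITATS1-2 this held for 26 genes (8 above and 18 below), with 59.6% of all tested genes. In bulk RNA, less RNA per cell and fewer expressing cells cannot be told apart.

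**Figure D1:**
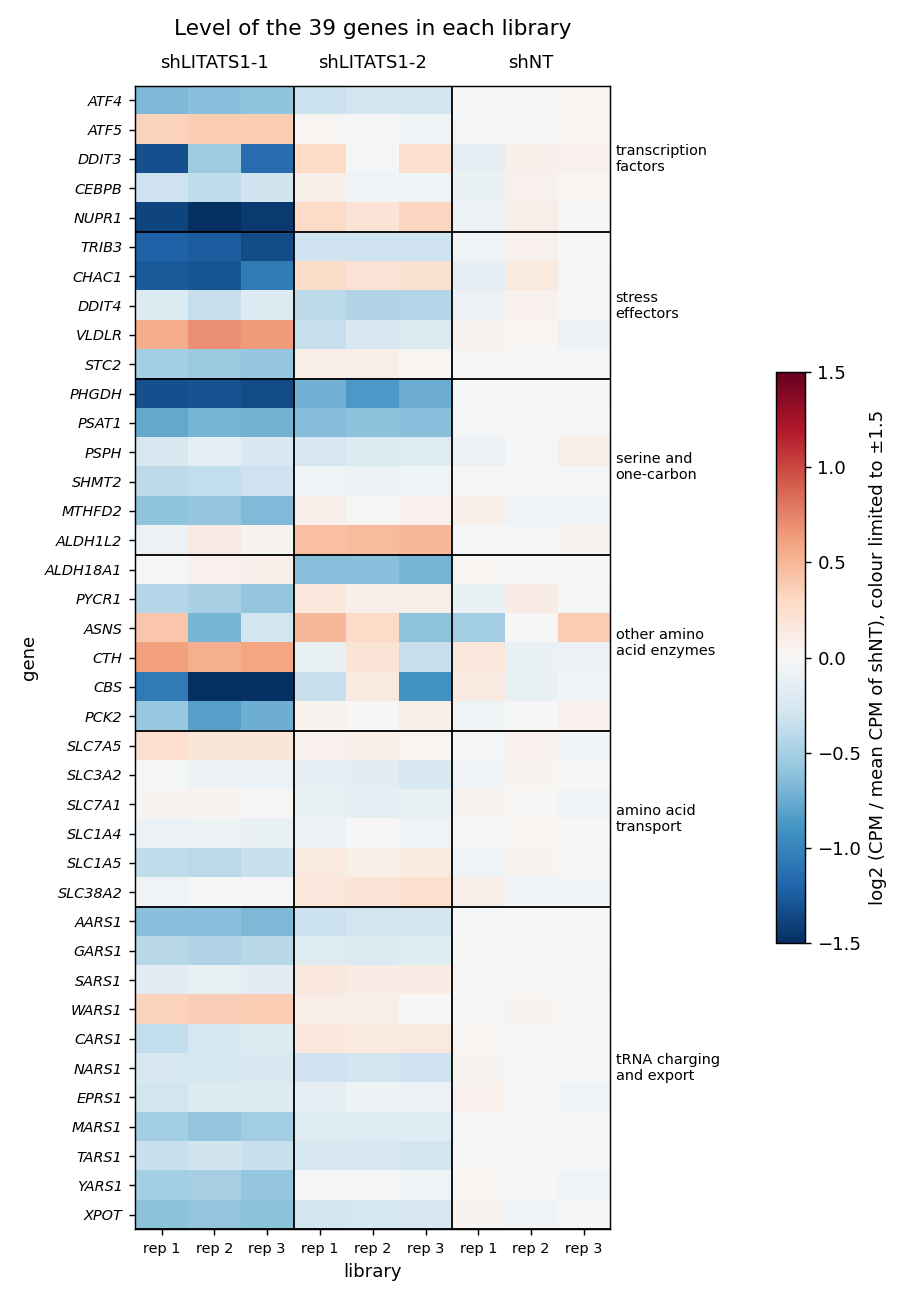
Level of each of the 39 genes (rows, grouped by role) in each of the 9 libraries (columns), as log2 of its TMM-scaled CPM over the mean of the shNT libraries, with the colour limited to ±1.5. Blue, a lower level, fills most rows with shLITATS1-1, and with shLITATS1-2 NUPR1, CHAC1, DDIT3 and MTHFD2 are near or above the shNT level, while PHGDH, PSAT1, AARS1 and XPOT are blue in all 6 LITATS1 hairpin libraries.

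Both comparisons with shNT use the same 3 control libraries, so their values are set side by side and no test of their overlap was made. With both hairpins, 13 of the 39 genes fell: ATF4, TRIB3, DDIT4, PHGDH, PSAT1, PSPH, AARS1, GARS1, NARS1, EPRS1, MARS1, TARS1 and XPOT. Among all tested genes, 16% were lower with both. No gene of the 39 was higher with both, where 15.2% of all tested genes were. Another 10 genes fell with shLITATS1-1 and did not pass with shLITATS1-2, and 4 genes rose with shLITATS1-1 and did not pass with shLITATS1-2. Of the rest, 3 fell and 2 rose with shLITATS1-2 and did not pass with shLITATS1-1, 5 were called in opposite directions (9.01% of all tested genes were) and 2, ASNS and SLC1A4, were called with neither. Of all tested genes, 61% were called with shLITATS1-1 and 56.7% with shLITATS1-2. The share of all genes called with a single hairpin was not counted, so these single-hairpin counts only describe the 39. A direct test between the hairpins called 34 of the 39 genes, 25 lower and 9 higher with shLITATS1-1 than with shLITATS1-2, while 60.9% of all tested genes were called, 30.7% lower and 30.2% higher. Library-size scaling, which shifted all genes by -0.131 in this comparison, gave 29 lower and 5 higher of the 39, and 6911 lower and 3293 higher of all genes. The libraries of the hairpins did not overlap for 36 of the 39 genes, 26 lower and 10 higher with shLITATS1-1, where 64.2% of all tested genes did not.

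**Figure D2:**
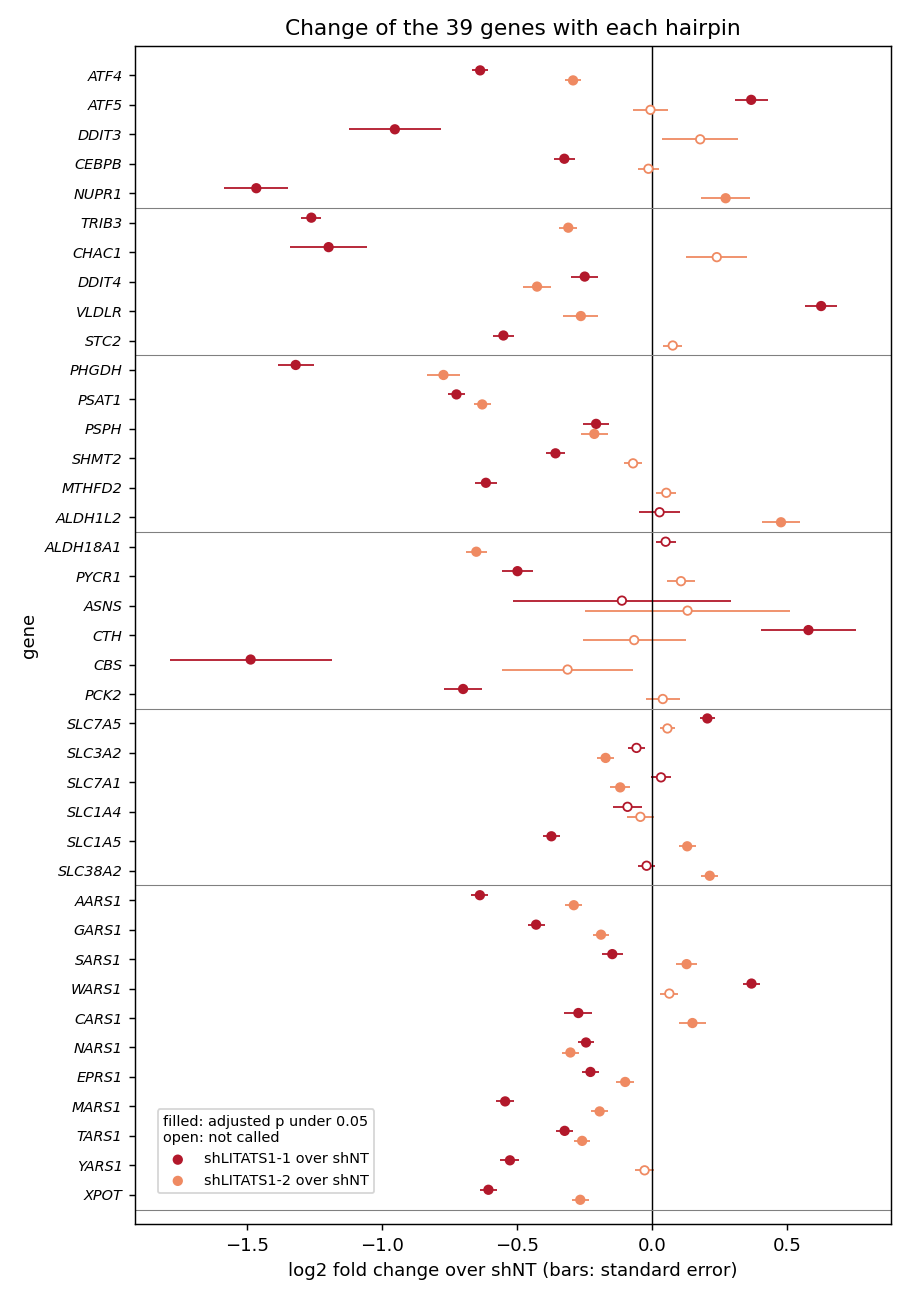
Log2 fold change over shNT of each of the 39 genes (rows) with shLITATS1-1 (dark red) and shLITATS1-2 (orange). Bars are standard errors derived from the F statistic of the edgeR fit of all 9 libraries, 3 a group. Filled points have an adjusted p under 0.05 and open points do not. The dark red points run from -1.49 (CBS) to 0.63 (VLDLR) and the orange points from -0.77 (PHGDH) to 0.48 (ALDH1L2).

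The transcription factors are described first. ATF4 (ENSG00000128272, chromosome 22, 39519695 to 39522685 of GRCh38, plus strand) is a highly expressed gene in these cells, and with shNT its level per kilobase of exon was 134 ± 2.18 FPKM (SD, n = 3), second of the 39 genes after the transporter gene SLC7A5. It had 210, 217 and 220.5 CPM in the shLITATS1-1 libraries, 270, 277 and 275 in the shLITATS1-2 libraries and 333, 332 and 342 in the shNT libraries. The groups did not overlap, and their order was shLITATS1-1, shLITATS1-2, shNT from low to high. ATF4 fell by 0.64 (SE 0.031) on the log2 scale with shLITATS1-1, a change of -35.7% (edgeR adjusted p = 2.2e-29), and by 0.29 (SE 0.030) with shLITATS1-2, a change of -18.4% (edgeR adjusted p = 1.72e-13). The level with shLITATS1-1 was also below that with shLITATS1-2 (-0.34, SE 0.031, edgeR adjusted p = 7.12e-16). Processed pseudogenes of ATF4 took few fragments, at most 89 over all libraries for ATF4P3.

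DDIT3 encodes CHOP, a factor that ATF4 induces and that promotes cell death under lasting stress. It was a weakly expressed gene, with 32, 55 and 36 fragments in the shLITATS1-1 libraries, 107, 85 and 103 in the shLITATS1-2 libraries and 74, 86 and 85 in the shNT libraries. All shLITATS1-1 libraries lay below the others, and shLITATS1-2 overlapped shNT. DDIT3 fell by 0.95 (SE 0.17) with shLITATS1-1 and did not pass with shLITATS1-2 (0.18, SE 0.14); between the hairpins the difference was -1.13 (SE 0.16, edgeR adjusted p = 1e-08). Of the exon bases of DDIT3, 27.2% are shared with the neighbouring methionyl-tRNA synthetase gene MARS1 on the opposite strand. How strand was treated in the counting is not stated in the available notes, and the counts of such neighbours are not fully separable. Like overlaps with opposite-strand genes of few fragments exist for DDIT4 (41.2% of its exon bases), MTHFD2 (27.2%) and SLC1A5 (23.4%).

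NUPR1 encodes a small stress-induced chromatin protein downstream of ATF4. It had 3.57, 3.05 and 3.42 CPM with shLITATS1-1, 11.3, 10.7 and 11.6 with shLITATS1-2, and 8.75, 9.97 and 9.08 with shNT. The shLITATS1-1 libraries stood at the bottom and the shLITATS1-2 libraries at the top, without overlap. NUPR1 fell by 1.47 (SE 0.12) with shLITATS1-1 and rose by 0.27 (SE 0.091, edgeR adjusted p = 0.00812) with shLITATS1-2, and between the hairpins it differed by -1.74 (SE 0.11), the largest such difference of the 39 genes. CEBPB, a C/EBP partner of ATF4, fell by 0.33 (SE 0.039) with shLITATS1-1 and did not pass with shLITATS1-2 (-0.014, SE 0.038), a value that turned to 0.099 and was called higher under library-size scaling. ATF5, a relative of ATF4 with a similar translational control, was the exception to the decreases, since it rose by 0.37 (SE 0.062) with shLITATS1-1 and stood at -0.0063 (SE 0.064) with shLITATS1-2. Of its exon bases 21.2% overlap NUP62 on the opposite strand.

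Of the 5 stress effectors, 4 fell and 1 rose with shLITATS1-1, and 3 fell and 2 did not pass with shLITATS1-2. The share called was 100% with shLITATS1-1 (61% of all tested genes) and 60% with shLITATS1-2 (56.7% of all tested genes), the latter near the background. TRIB3, a pseudokinase gene that ATF4 and CHOP induce and that feeds back on ATF4, had 85.6, 83.3 and 78.3 CPM with shLITATS1-1, 160, 159 and 159 with shLITATS1-2, and 190, 206 and 197 with shNT. As for ATF4, the 3 groups were apart and in the same order. It fell by 1.26 (SE 0.037) with shLITATS1-1, a change of -58.3% (edgeR adjusted p = 3.87e-42), and by 0.31 (SE 0.034) with shLITATS1-2, a change of -19.4% (edgeR adjusted p = 1.86e-12). CHAC1, a glutathione-degrading enzyme gene and a sensitive ATF4 target, had 2.47, 2.42 and 2.84 CPM with shLITATS1-1, 7.14, 6.88 and 6.96 with shLITATS1-2, and 5.37, 6.54 and 5.85 with shNT. It fell by 1.20 (SE 0.14) with shLITATS1-1, and with shLITATS1-2 all 3 libraries lay above shNT, but the difference did not pass (0.24, SE 0.11, edgeR adjusted p = 0.0652). That value passed under library-size scaling (0.35), with a filter of 50 counts (0.26) and without shNT replicate 2 (0.31). TRIB3 and CHAC1 thus took the same direction with shLITATS1-1, and with shLITATS1-2 TRIB3 fell while CHAC1 did not.

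DDIT4 encodes REDD1, an inhibitor of mTORC1. Its 43.9, 39.9 and 43.9 CPM with shLITATS1-1 and 38.7, 37.1 and 37.3 with shLITATS1-2 lay below the 47.8, 52.8 and 51.4 CPM with shNT. It fell by 0.25 (SE 0.051) with shLITATS1-1 and by 0.43 (SE 0.051) with shLITATS1-2, so the larger decrease was with shLITATS1-2. The hairpins differed by 0.18 (SE 0.052), which no longer passed under library-size scaling (0.046). STC2, a secreted glycoprotein gene, fell by 0.55 (SE 0.037) with shLITATS1-1 and did not pass with shLITATS1-2 (0.076, SE 0.035); the value with shLITATS1-2 passed under library-size scaling (0.19), with a filter of 50 counts (0.094), without shNT replicate 1 (0.094) and without shLITATS1-2 replicate 3 (0.097). VLDLR, a lipoprotein receptor gene, rose by 0.63 (SE 0.060) with shLITATS1-1 and fell by 0.26 (SE 0.065) with shLITATS1-2.

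**Figure D3:**
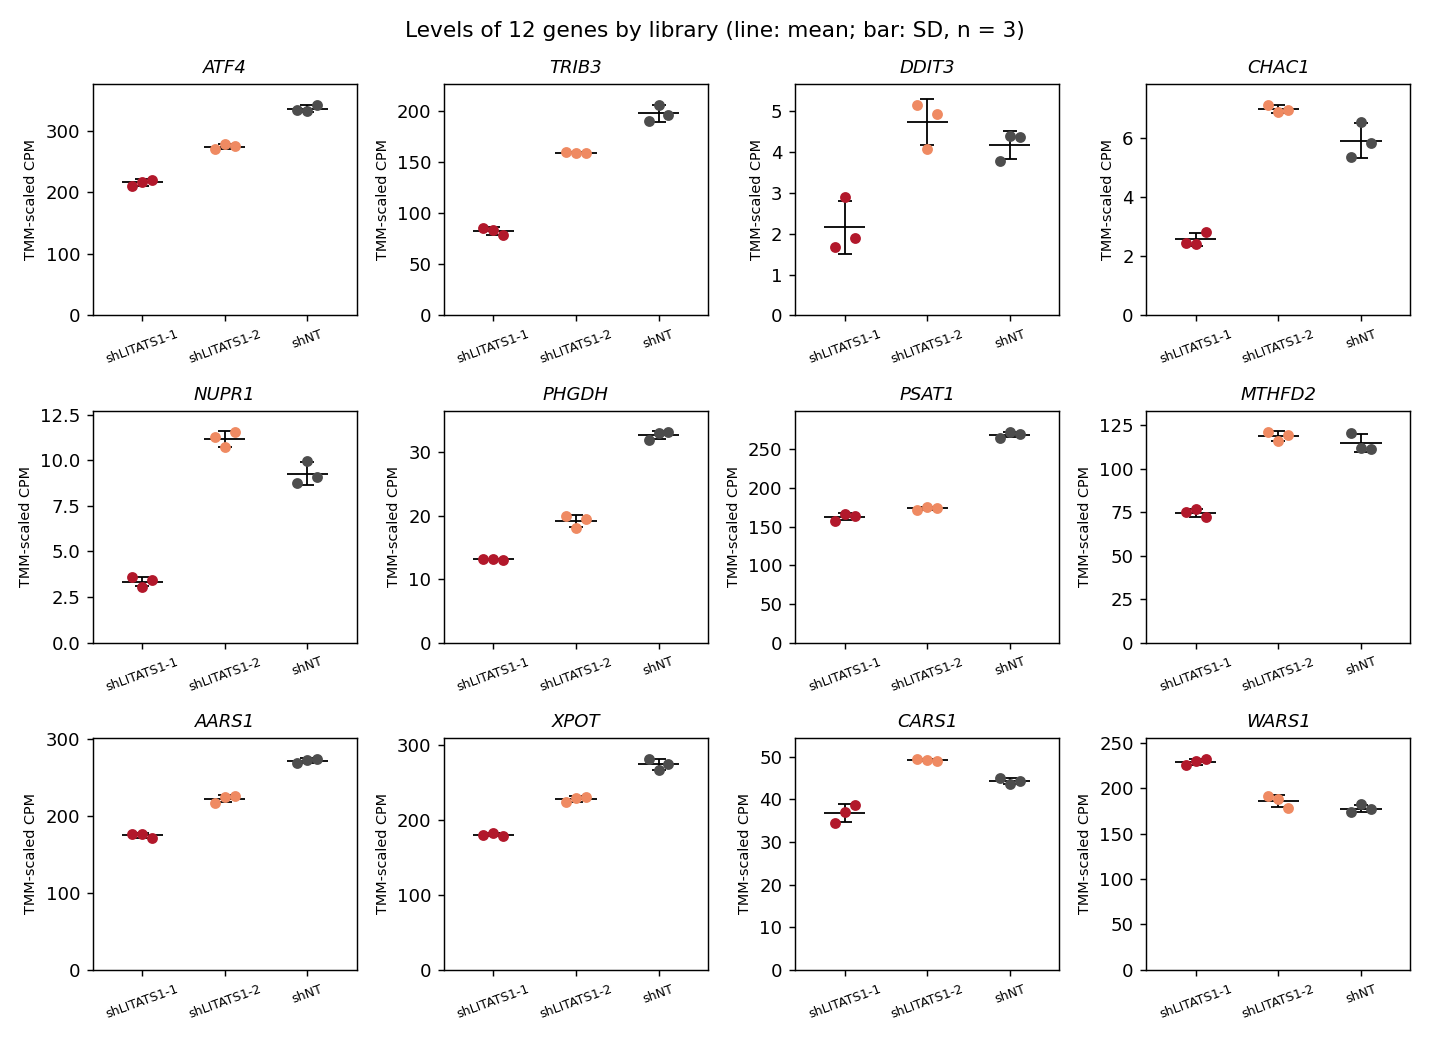
TMM-scaled CPM of 12 genes in each library, with shLITATS1-1, shLITATS1-2 and shNT from left to right; points are libraries, black lines the mean and bars the SD over 3 libraries, and each vertical axis starts at 0. ATF4, TRIB3, PHGDH, AARS1 and XPOT step up over the 3 groups, whereas NUPR1 and CHAC1 are low in the shLITATS1-1 libraries and highest in the shLITATS1-2 libraries.

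The mRNAs for each step of serine synthesis fell with both hairpins in the main fit, PHGDH the most. PHGDH (ENSG00000092621, chromosome 1, 119648411 to 119744226, plus strand) encodes the dehydrogenase that commits a glycolytic intermediate to serine. It had 13.1, 13.2 and 12.9 CPM with shLITATS1-1, 19.9, 18.0 and 19.5 with shLITATS1-2, and 32.0, 33.0 and 33.2 with shNT. The groups were apart, and the change was -60.0% with shLITATS1-1 (log2 fold change -1.32, SE 0.067, edgeR adjusted p = 3.21e-28) and -41.5% with shLITATS1-2 (-0.77, SE 0.061, edgeR adjusted p = 2.85e-18). PSAT1 (ENSG00000135069, chromosome 9, 78297143 to 78330093, plus strand) encodes the transaminase of the next step. It had 158, 167 and 164 CPM with shLITATS1-1, 172, 175.5 and 175 with shLITATS1-2, and 265, 273 and 270 with shNT. PSAT1 fell by 0.73 (SE 0.032) with shLITATS1-1 and by 0.63 (SE 0.032) with shLITATS1-2. The 2 hairpins were close to each other here (-0.095, SE 0.033), and their difference no longer passed without shLITATS1-1 replicate 1 (-0.071). PSPH, encoding the phosphatase of the last step, fell by 0.21 (SE 0.050) with shLITATS1-1 and 0.21 (SE 0.049) with shLITATS1-2, and the decrease with shLITATS1-2 was lost under library-size scaling (-0.10). With shNT, PSAT1 (123 ± 1.74 FPKM) was far more abundant per kilobase of exon than PSPH (18.9 ± 1.17) and PHGDH (3.55 ± 0.0716). These values depend on the annotated exon length, which is 2188 bases for PSAT1, 2762 for PSPH and 9217 for PHGDH. Without division by length, the shNT means were 269 CPM for PSAT1, 52.2 for PSPH and 32.7 for PHGDH.

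The mitochondrial folate genes downstream of serine behaved differently between the hairpins. SHMT2, which splits serine into glycine and a folate-bound carbon unit, had 98.5, 99.7 and 104 CPM with shLITATS1-1, 123.5, 122 and 124 with shLITATS1-2, and 131, 129 and 128 with shNT. It fell by 0.36 (SE 0.036) with shLITATS1-1; with shLITATS1-2 the libraries lay just below shNT and the difference did not pass (-0.071, SE 0.035). MTHFD2, which oxidizes that carbon unit, had 75.3, 76.8 and 72.2 CPM with shLITATS1-1, 121, 116 and 119 with shLITATS1-2, and 120.5, 112 and 112 with shNT. It fell by 0.62 (SE 0.039) with shLITATS1-1, while the shLITATS1-2 libraries overlapped shNT (0.052, SE 0.037); without shNT replicate 1 the value with shLITATS1-2 passed (0.097), as it did under library-size scaling (0.17). The direct difference between the hairpins was -0.67 (SE 0.039, edgeR adjusted p = 7.5e-25). ALDH1L2, a mitochondrial formyl-folate dehydrogenase, did not pass with shLITATS1-1 (0.027, SE 0.075) and rose by 0.48 (SE 0.070) with shLITATS1-2. Of the 6 genes in this group, 5 fell with shLITATS1-1 and 1 did not pass, and 3 fell and 1 rose with shLITATS1-2. Of all tested genes, 30.5% fell and 30.5% rose with shLITATS1-1, and 28.9% fell and 27.8% rose with shLITATS1-2.

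The other amino acid enzymes went separate ways. PCK2, the mitochondrial enzyme that makes phosphoenolpyruvate, had 16.3, 13.8 and 14.6 CPM with shLITATS1-1, 25.04, 24.0 and 25.6 with shLITATS1-2, and 23.1, 24.2 and 25.4 with shNT. It fell by 0.70 (SE 0.071) with shLITATS1-1 and did not pass with shLITATS1-2 (0.039, SE 0.063). The proline genes split between the hairpins. ALDH18A1, the first enzyme of proline synthesis from glutamate, had 109, 113 and 114 CPM with shLITATS1-1, 69.9, 70.1 and 67.1 with shLITATS1-2, and 111, 107 and 108 with shNT, so that only the shLITATS1-2 libraries stood apart. It fell by 0.65 (SE 0.039) with shLITATS1-2 and was at 0.050 (SE 0.037) with shLITATS1-1. PYCR1, the last enzyme of the same route, fell by 0.50 (SE 0.057) with shLITATS1-1 and did not pass with shLITATS1-2 (0.11, SE 0.053), although this passed under library-size scaling (0.22), with a filter of 50 counts (0.12) and without shNT replicate 2 (0.17).

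In the transsulfuration route, CTH, which makes cysteine, rose by 0.58 (SE 0.18) with shLITATS1-1 and did not pass with shLITATS1-2 (-0.067, SE 0.19). CBS, the enzyme before it, was near the detection limit, with 14, 7 and 10 fragments with shLITATS1-1, 25, 35 and 17 with shLITATS1-2, and 33, 28 and 29 with shNT. It fell by 1.49 (SE 0.30) with shLITATS1-1 and did not pass with shLITATS1-2 (-0.31, SE 0.24). The assembly holds a near-identical copy, CBSL, so CBS counts are uncertain. ASNS, asparagine synthetase and a classic ATF4 target, had only 13, 6 and 8 fragments with shLITATS1-1, 15, 13 and 7 with shLITATS1-2, and 7, 10 and 13 with shNT, too few to show a change (-0.11, SE 0.40, with shLITATS1-1 and 0.13, SE 0.38, with shLITATS1-2). In GENCODE 29, 44.6% of its exon bases are shared with AC079781.5 on the same strand, which itself had 113 fragments over all libraries. The part of this overlap in the low ASNS count was not tested, and the ASNS value is uncertain.

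Amino acid transport genes had medians near 0, at -0.039 with shLITATS1-1 and 0.0065 with shLITATS1-2: 1 of 6 rose and 1 fell with shLITATS1-1, and 2 rose and 2 fell with shLITATS1-2. The share called was 33.3% with shLITATS1-1 (61% of all tested genes) and 66.7% with shLITATS1-2 (56.7% of all tested genes). SLC7A5, the light chain of the leucine carrier LAT1, was the most abundant of the 39 genes per kilobase of exon, at 320 ± 12.5 FPKM with shNT. It had 1804, 1721 and 1731 CPM with shLITATS1-1, 1586, 1604 and 1553 with shLITATS1-2, and 1491, 1589 and 1482 with shNT. SLC7A5 rose by 0.20 (SE 0.028) with shLITATS1-1, opposite to ATF4. The shLITATS1-2 libraries overlapped shNT (0.057, SE 0.028), a value that passed without shNT replicate 2 (0.087), with a filter of 50 counts (0.074) and under library-size scaling (0.17). Its partner chain gene SLC3A2 had 480.5, 462 and 459 CPM with shLITATS1-1, 445, 435 and 415 with shLITATS1-2, and 469, 502 and 488 with shNT. SLC3A2 did not pass with shLITATS1-1 (-0.058, SE 0.030), but passed as lower without shNT replicate 1 (-0.079) or without shLITATS1-1 replicate 1 (-0.078). It fell by 0.17 (SE 0.030) with shLITATS1-2, a call lost under library-size scaling (-0.060).

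SLC1A5, a glutamine carrier, had 198, 194 and 204 CPM with shLITATS1-1, 285, 274 and 285 with shLITATS1-2, and 246, 265 and 261 with shNT. The shNT libraries lay between the hairpins, and SLC1A5 fell by 0.37 (SE 0.032) with shLITATS1-1 and rose by 0.13 (SE 0.032) with shLITATS1-2. SLC38A2, the SNAT2 carrier of small neutral amino acids, had 435, 450.5 and 445 CPM with shLITATS1-1, 508, 520 and 538 with shLITATS1-2, and 477, 437 and 436 with shNT. It rose by 0.21 (SE 0.031) with shLITATS1-2 and was at -0.021 (SE 0.031) with shLITATS1-1. SLC7A1, a carrier of arginine and lysine, fell by 0.12 (SE 0.037) with shLITATS1-2, a call lost under library-size scaling (-0.0056), and was at 0.033 (SE 0.037) with shLITATS1-1. SLC1A4, a carrier of serine and alanine, passed with neither hairpin (-0.091, SE 0.052, with shLITATS1-1 and -0.044, SE 0.051, with shLITATS1-2).

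Most genes of tRNA charging and export fell. With shLITATS1-1, 10 of 11 fell and WARS1 rose, with a median of -0.32. With shLITATS1-2, 7 fell, SARS1 and CARS1 rose, and WARS1 and YARS1 did not pass, with a median of -0.19. Among all tested genes, 30.5% were called lower with shLITATS1-1 and 28.9% with shLITATS1-2. AARS1, the alanyl-tRNA synthetase gene, had 176, 177 and 171 CPM with shLITATS1-1, 217, 225 and 225.5 with shLITATS1-2, and 269, 273 and 274 with shNT. Its changes, -35.8% with shLITATS1-1 (log2 fold change -0.64, SE 0.032) and -18.2% with shLITATS1-2 (-0.29, SE 0.031), were close to those of ATF4. XPOT, the exportin that carries tRNAs out of the nucleus, had 180, 182 and 178 CPM with shLITATS1-1, 224, 229 and 231 with shLITATS1-2, and 281, 267 and 274 with shNT. It fell by 0.61 (SE 0.032) with shLITATS1-1 and 0.27 (SE 0.031) with shLITATS1-2, again with the 3 groups apart.

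MARS1 fell by 0.54 (SE 0.033) with shLITATS1-1 and 0.19 (SE 0.032) with shLITATS1-2, GARS1 by 0.43 (SE 0.032) with shLITATS1-1 and 0.19 (SE 0.031) with shLITATS1-2, and TARS1 by 0.32 (SE 0.031) with shLITATS1-1 and 0.26 (SE 0.030) with shLITATS1-2. These load methionine, glycine and threonine. NARS1, for asparagine, had 231, 227 and 233 CPM with shLITATS1-1, 220, 223 and 221 with shLITATS1-2, and 281, 267 and 271 with shNT. It fell by 0.25 (SE 0.031) with shLITATS1-1 and by 0.30 (SE 0.031) with shLITATS1-2, and the difference between the hairpins did not pass (0.058, SE 0.031); it passed at 0.068 in a fit of the 6 hairpin libraries alone, and at -0.073 under library-size scaling. EPRS1, the joint synthetase for glutamate and proline, fell by 0.23 (SE 0.033) with shLITATS1-1 and 0.10 (SE 0.033) with shLITATS1-2. The smaller value was lost without shNT replicate 1 (-0.058) and turned to 0.013 under library-size scaling.

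YARS1, for tyrosine, had 108, 108 and 103 CPM with shLITATS1-1, 151, 152 and 148 with shLITATS1-2, and 156, 154 and 149 with shNT. It fell by 0.53 (SE 0.035) with shLITATS1-1 and overlapped shNT with shLITATS1-2 (-0.028, SE 0.034; 0.085 under library-size scaling, where it was called higher). CARS1, for cysteine, had 34.5, 37.1 and 38.6 CPM with shLITATS1-1, 49.5, 49.2 and 49.0 with shLITATS1-2, and 45.1, 43.6 and 44.4 with shNT. It fell by 0.27 (SE 0.052) with shLITATS1-1 and rose by 0.15 (SE 0.049) with shLITATS1-2. SARS1, for serine, showed the same split, since it fell by 0.15 (SE 0.039) with shLITATS1-1 and rose by 0.13 (SE 0.038) with shLITATS1-2. WARS1, for tryptophan, is also an interferon-induced gene. It had 226, 230 and 232 CPM with shLITATS1-1, 191, 188 and 178 with shLITATS1-2, and 174, 182 and 177 with shNT. WARS1 rose by 0.37 (SE 0.033) with shLITATS1-1, alone among the 11; with shLITATS1-2 it did not pass (0.064, SE 0.033), but did without shLITATS1-2 replicate 3 (0.093), with a filter of 50 counts (0.082) and under library-size scaling (0.18).

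The composite element that ATF4 binds with C/EBP factors can be looked for in the promoters of these genes. The motif TGATGNAA was searched on both strands in RefSeq promoter windows of GRCh38.p14, from 250 bases before to 50 after the RefSeq gene start, 300 bases in all. Windows were found for 33 of the 39 genes, and 9 of them, or 27.3%, hold the motif. Among 11289 windows of tested genes 1.71% do, and among all 35116 windows 3.62%. The 39 genes were chosen by name for the ATF4 pathway, so a share above that of all genes follows from this choice. It is no result of the hairpin comparisons. Of the 10 windows for tRNA charging and export genes 5 hold it, of the 6 for transport genes 2, and of the 4 for transcription factors and the 3 for serine and folate genes none. Stretches of at most 30 bases around each match are given on the gene's strand, 5′ to 3′, with the motif in capitals (TTNCATCA is the same motif read on the other strand), because they show the shared letters behind the description.
CHAC1, chr15:40953251-40953280, plus strand: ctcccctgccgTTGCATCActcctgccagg
ASNS, chr7:97872458-97872487, minus strand: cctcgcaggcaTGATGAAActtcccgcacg
SLC3A2, chr11:62881725-62881748, plus strand: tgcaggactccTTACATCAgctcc
SLC7A1, chr13:29595663-29595692, minus strand: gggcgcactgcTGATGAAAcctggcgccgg
AARS1, chr16:70289675-70289704, minus strand: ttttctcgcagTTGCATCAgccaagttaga
CARS1, chr11:3057407-3057436, minus strand: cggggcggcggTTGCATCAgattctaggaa
NARS1, chr18:57621804-57621833, minus strand: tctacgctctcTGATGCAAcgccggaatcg
MARS1, chr12:57488053-57488082, plus strand: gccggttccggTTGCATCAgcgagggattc
TARS1, chr5:33440956-33440985, plus strand: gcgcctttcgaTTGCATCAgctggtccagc

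In 6 of these 9 stretches the full motif reads TTGCATCA or its reverse complement TGATGCAA, among them all 5 synthetase genes, where it lies 187 bases before the start (AARS1) or within 14 bases of it (CARS1, MARS1, TARS1 and NARS1). With shLITATS1-1, 6 of the 9 genes with it fell and 3 did not pass (median -0.27), and 16 of the 24 without it fell and 5 rose (median -0.35). With shLITATS1-2, 6 of 9 fell and 1 rose (median -0.17), and 10 of 24 fell and 3 rose (median -0.055). For comparison, 30.5% of all tested genes were called lower and 30.5% higher with shLITATS1-1. The shares with shLITATS1-2 were 28.9% lower and 27.8% higher. Calls were not counted among all tested genes whose windows hold the motif. The part of the motif in the calls of the 9 genes was therefore not tested. Among the synthetase genes, CARS1 has the motif and rose with shLITATS1-2, and GARS1 has none in its window and fell with both hairpins. A match is a description of letters and no evidence of binding, and a window without one says nothing of elements elsewhere, such as in introns.

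Other genes of the pathway, taken from lists of textbook members, were read beside the 39. Of 14 tested further ATF4 targets, 8 fell and 6 rose with shLITATS1-1, and 7 fell and 4 rose with shLITATS1-2. All tested genes were likewise called in both directions, 30.5% lower and 30.5% higher with shLITATS1-1 and 28.9% lower and 27.8% higher with shLITATS1-2, and the counts of the lists below are to be read beside these shares. GDF15, a stress cytokine, fell by 1.76 (SE 0.081) with shLITATS1-1 and did not pass with shLITATS1-2 (-0.066, SE 0.067), the split also seen for DDIT3. ADM2, a peptide hormone gene, fell by 0.92 (SE 0.25) with shLITATS1-1 and did not pass with shLITATS1-2 (0.40, SE 0.20). SLC7A11, the cystine carrier, fell by 0.32 (SE 0.039) with shLITATS1-1 and 0.62 (SE 0.039) with shLITATS1-2, and JDP2 by 0.18 (SE 0.076) with shLITATS1-1 and 0.45 (SE 0.077) with shLITATS1-2. SESN2, a sestrin that ATF4 and p53 both induce, rose by 0.82 (SE 0.082) with shLITATS1-1 and 1.14 (SE 0.078) with shLITATS1-2. The chaperone gene CLGN rose by 0.93 (SE 0.089) with shLITATS1-1 and fell by 0.33 (SE 0.10) with shLITATS1-2, and KLHL24 did likewise (0.66, SE 0.085, with shLITATS1-1 and -0.40, SE 0.096, with shLITATS1-2). FGF21 had no fragment, and INHBE was too low to test.

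Of 13 further genes for cytosolic synthetases and their scaffold, which are less known as ATF4 targets, 10 fell and 1 rose with shLITATS1-1 (median -0.22), and 8 fell and none rose with shLITATS1-2 (median -0.13). IARS1, for isoleucine, fell by 0.45 (SE 0.030) with shLITATS1-1 and 0.15 (SE 0.030) with shLITATS1-2, LARS1, for leucine, by 0.43 (SE 0.034) with shLITATS1-1 and 0.23 (SE 0.034) with shLITATS1-2, and FARSB, for phenylalanine, by 0.25 (SE 0.036) with shLITATS1-1 and 0.18 (SE 0.035) with shLITATS1-2. FARSA fell by 0.39 (SE 0.044) with shLITATS1-1 and was at -0.059 (SE 0.042) with shLITATS1-2. Of the scaffold genes, AIMP2 fell by 0.46 (SE 0.053) with shLITATS1-1, EEF1E1 by 0.51 (SE 0.11) with shLITATS1-2, and AIMP1 by 0.12 (SE 0.046) with shLITATS1-1 and 0.24 (SE 0.046) with shLITATS1-2. Decreases were thus also seen among synthetase genes outside the 39.

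Genes that the factors ATF6 and XBP1 drive in the parallel branches of the unfolded protein response, many of them for chaperones, mostly rose. The list also holds XBP1 itself and genes that encode no chaperone, such as HERPUD1. Of 14, 9 rose and 1 fell with shLITATS1-1 (median 0.10), and 11 rose and none fell with shLITATS1-2 (median 0.39). HSPA5, the chaperone BiP, rose by 0.088 (SE 0.027) with shLITATS1-1 and 0.77 (SE 0.027) with shLITATS1-2, CRELD2 by 0.13 (SE 0.049) with shLITATS1-1 and 0.94 (SE 0.045) with shLITATS1-2, HERPUD1 by 1.00 (SE 0.044) with shLITATS1-1 and 0.74 (SE 0.044) with shLITATS1-2, and DNAJB9 by 0.36 (SE 0.062) with shLITATS1-1 and 0.41 (SE 0.061) with shLITATS1-2. PDIA4 rose by 0.57 (SE 0.028) with shLITATS1-2, and DNAJC3 (0.44, SE 0.044) and EDEM1 (0.23, SE 0.040) rose with shLITATS1-1. All 7 NRF2 target genes fell with both hairpins, with medians of -0.40 with shLITATS1-1 and -0.57 with shLITATS1-2. Among them NQO1, a quinone reductase, fell by 0.54 (SE 0.027) with shLITATS1-1 and 0.85 (SE 0.028) with shLITATS1-2, GCLM, of glutathione synthesis, by 0.55 (SE 0.030) with shLITATS1-1 and 0.47 (SE 0.030) with shLITATS1-2, and AKR1C1 by 0.57 (SE 0.035) with shLITATS1-1 and 0.40 (SE 0.035) with shLITATS1-2. TXNRD1 fell by 0.40 (SE 0.028) with shLITATS1-1 and 0.58 (SE 0.028) with shLITATS1-2, AKR1C2 by 0.30 (SE 0.027) with shLITATS1-1 and 0.63 (SE 0.028) with shLITATS1-2, and AKR1B10 by 0.21 (SE 0.030) with shLITATS1-1 and 0.57 (SE 0.030) with shLITATS1-2. The part of NRF2 in the ATF4 and serine gene levels was not tested.

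**Figure D4:**
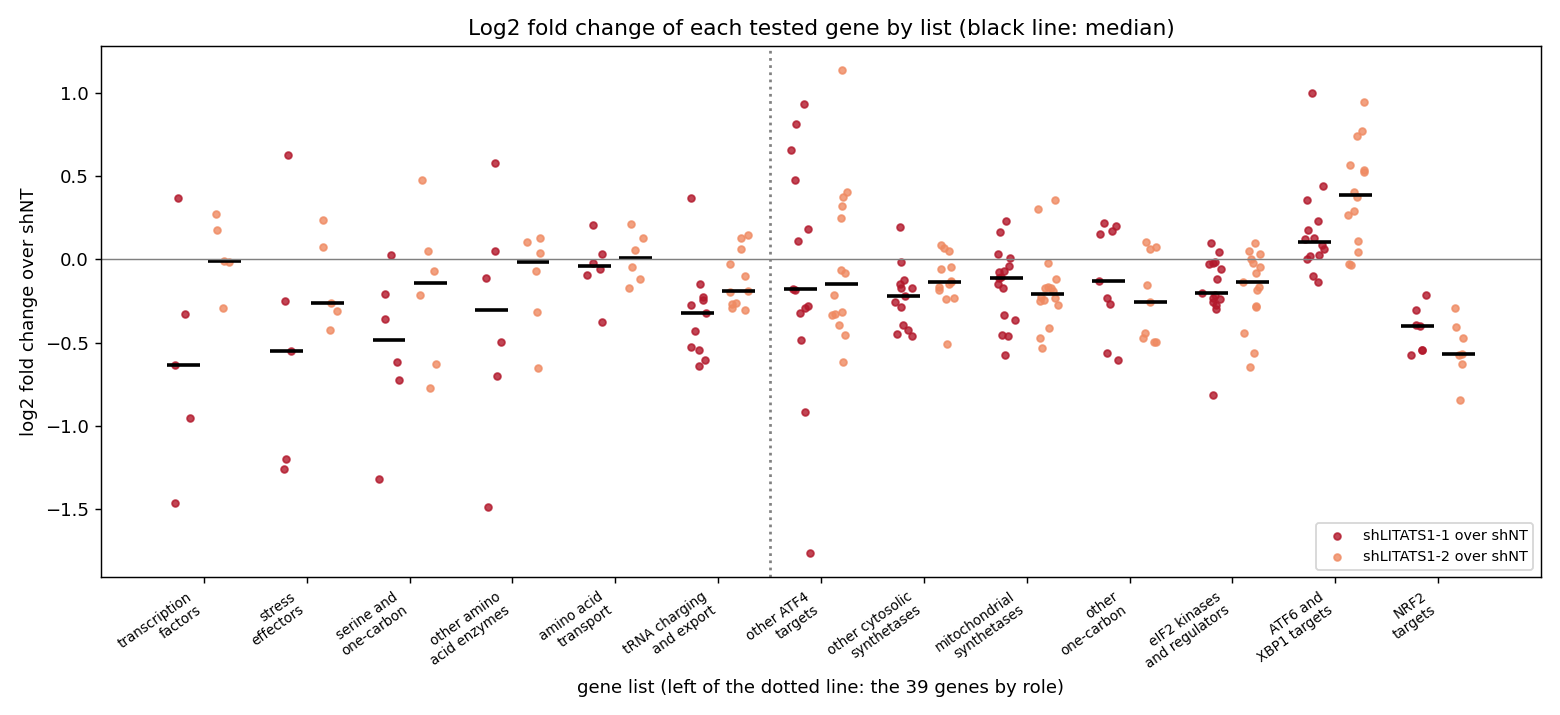
Log2 fold change over shNT of each tested gene, by list, with shLITATS1-1 (dark red) and shLITATS1-2 (orange); a point is a gene, a black line the list's median, and the 6 lists left of the dotted line hold the 39 genes by role. Medians lie below 0 for tRNA charging and export (-0.32 with shLITATS1-1 and -0.19 with shLITATS1-2) and for NRF2 targets (-0.40 and -0.57 with the same hairpins), and above 0 for ATF6 and XBP1 targets (0.10 and 0.39 with the same hairpins).

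Levels per kilobase of exon ordered the 39 genes in the shNT libraries over a wide range. After SLC7A5, ATF4 and PSAT1 came SLC3A2 (93.9 ± 3.18 FPKM, SD, n = 3), SLC1A5 (77.2 ± 3.01), CEBPB (71.3 ± 4.29), SLC38A2 (68.2 ± 3.53) and NARS1 (66.8 ± 1.78), of which the last 4 overlapped their neighbours in the order. The synthetase genes and XPOT lay between NARS1 and CARS1 (4.42 ± 0.0761). At the low end were ALDH1L2 (1.82 ± 0.0409), NUPR1 (1.63 ± 0.111), CTH (0.884 ± 0.0975), CBS (0.226 ± 0.0199) and ASNS (0.115 ± 0.0347). The CBS and ASNS counts are uncertain for the reasons given above, so their places in the order are uncertain too. The exon length is the union of all GENCODE 29 exons (5674 bases for NUPR1), which lowers the value of genes with long rare transcripts.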

How the data were processed

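RNA sequencing libraries of A549 cells in 3 groups of 3 were analysed from 1 deposited table of raw fragment counts per gene, which the authors made with FastQC, cutadapt 2.10, STAR 2.7.5a and HTSeq 0.12.4 on GRCh38, per the submitters' processing notes. Neither the strand setting nor the annotation release is given in the sources used here. Lines that name no gene (ambiguous 10.2% to 10.9% of fragments, no feature 2.29% to 2.63%, unaligned 3.66% to 5.57%, several alignments 1.82% to 2.12%, low quality 0.00653% to 0.00781%) stayed out of library sizes and tests. Groups and replicate numbers came from the titles. Replicate pairs differed by more than sampling noise (chi-square per degree of freedom 1.47 to 2.72). The spread beyond that noise was small, with a common coefficient of variation of 2.71% in the edgeR fit.

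Genes were kept by edgeR's filterByExpr (minimum count 10), scaled by TMM, and tested in 1 quasi-likelihood fit of all 9 libraries (edgeR 4.0.16, R 4.3.3, 6 residual degrees of freedom), two-sided, with Benjamini-Hochberg adjustment over 15500 genes and a threshold of 0.05. Standard errors (SE) were derived from this test, as the absolute log2 fold change divided by the square root of its F statistic. CPM values are TMM-scaled, and FPKM values divide them by GENCODE 29 exon length. Symbols were matched for 60357 of 60676 gene identifiers. The procedure was tested on simulated data in which few genes changed, and in a single group only. That setting did not probe the scaling step where most genes are called, as they were here. The 39 genes, the lists and the tests were chosen with earlier results of these data known, so they are no independent support. Per-library values are printed for 12 genes chosen by name and for the 2 called genes of each role with the largest change in each comparison, and up to 4 called genes are named of each other pathway list, except for a few genes that are counted in their lists but not reported singly here. The alternatives were DESeq2 1.42.0, its size factors in edgeR, library-size scaling, a minimum of 50 counts or none, a term for the replicate number, a separate fit for each pair of groups (6 libraries), a stricter threshold (0.01) and the omission of each library. Python 3.11.15 was used for tables and figures.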

Additional observations from a re-analysis of the deposited data

Results flagged for a closer look

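Of the 39 genes, 5 were called in opposite directions by the hairpins, where 9.01% of all tested genes were. Genes called lower with one hairpin and higher with the other against the same shNT libraries differ between the hairpins by that choice, so the direct test, which passed for each, adds little. The log2 fold change of shLITATS1-1 over shLITATS1-2 was -1.74 for NUPR1, 0.89 for VLDLR, -0.50 for SLC1A5, -0.42 for CARS1 and -0.28 for SARS1. VLDLR was the gene of the 5 that was higher with shLITATS1-1.

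Unaligned fragments, which belong to no gene and enter no comparison, made up 5.56% ± 0.0179 (SD, n = 3) of all fragments with shLITATS1-1 and 5.43% ± 0.0573 with shLITATS1-2, above the 3.79% ± 0.116 with shNT.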

How the results depend on the processing

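With shLITATS1-1 all 32 calls among the 39 genes kept their direction and passed under each alternative that tested them. With shLITATS1-2, 19 of 23 did, and between the hairpins 29 of 34. Most exceptions came from library-size scaling. With shLITATS1-2 it ended the calls of PSPH (-0.10), SLC3A2 (-0.060) and SLC7A1 (-0.0056) and turned EPRS1 (0.013), which was also lost without shNT replicate 1. Between the hairpins it ended those of DDIT4 (0.046), SLC7A5 (0.017) and SLC7A1 (0.020) and turned SLC3A2 (-0.017). The PSAT1 call between the hairpins was lost without shLITATS1-1 replicate 1 (-0.071). Of genes not called in the main fit, library-size scaling turned CEBPB (0.099) and YARS1 (0.085) with shLITATS1-2. It did so for PSPH (-0.12) and NARS1 (-0.073) between the hairpins, and all 4 then passed. It also made PCK2 pass with shLITATS1-2 (0.15), SLC1A4 (-0.18) and TARS1 (-0.20) between the hairpins, and SLC3A2 with shLITATS1-1 (-0.076). TARS1 passed between the hairpins also with a filter of 50 counts (-0.072) and without shNT replicate 1 (-0.067).

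The genes lower with both hairpins numbered 13, with 11 under library-size scaling and 13 to 14 without 1 library. Those higher with both numbered 0, with 2 under library-size scaling, 2 with a filter of 50 counts and 0 to 1 without 1 library (1 without shNT replicate 2 or shLITATS1-2 replicate 3). Those called in opposite directions numbered 5, with 12 under library-size scaling, 8 with a filter of 50 counts and 5 to 7 without 1 library. The TMM factors were computed anew on the genes kept by this filter. With shLITATS1-2 the genes that then passed all moved up slightly. CHAC1 went from 0.239 to 0.257, STC2 from 0.076 to 0.094 and PYCR1 from 0.107 to 0.125. SLC7A5 went from 0.057 to 0.074 and WARS1 from 0.064 to 0.082, so these passes are not separate checks. The part of the scaling in the filter's effect was not tested. The replicate numbers did not pair the libraries (correlations of same-numbered deviations from -0.0612 to 0.0355), and with the replicate block 32, 23 and 34 of the 39 genes were called in the 3 comparisons, as without it. DESeq2 called the same numbers. Low counts limit ASNS, CBS, CTH and DDIT3. CHAC1 (46 to 54 fragments with shLITATS1-1) and NUPR1 (58 to 68 with the same hairpin) were low as well.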

Other observations

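Mitochondria have synthetases of their own, encoded by nuclear genes. Of all tested genes, 30.5% fell and 30.5% rose with shLITATS1-1, and 28.9% fell and 27.8% rose with shLITATS1-2. Of 16 tested genes for these enzymes, 6 fell and 2 rose with shLITATS1-1 (median -0.11), and 13 fell and 1 rose with shLITATS1-2 (median -0.21). AARS2 fell by 0.46 (SE 0.083) with shLITATS1-1 and 0.24 (SE 0.079) with shLITATS1-2, YARS2 by 0.45 (SE 0.064) with shLITATS1-1 and 0.19 (SE 0.061) with shLITATS1-2, and EARS2 by 0.34 (SE 0.044) with shLITATS1-1 and 0.12 (SE 0.042) with shLITATS1-2. CARS2 (-0.53, SE 0.047), FARS2 (-0.47, SE 0.084) and TARS2 (-0.41, SE 0.053) fell with shLITATS1-2 and did not pass with shLITATS1-1. LARS2 rose with both, by 0.23 (SE 0.056) with shLITATS1-1 and 0.36 (SE 0.055) with shLITATS1-2.

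Among 15 genes for eIF2 kinases, eIF2B subunits and their regulators, 9 fell and 1 rose with shLITATS1-1, and 8 fell and none rose with shLITATS1-2. The share called in either direction was 66.7% with shLITATS1-1 and 53.3% with shLITATS1-2, near the 61% and 56.7% of all tested genes with the same hairpins. OMA1, a protease that relays mitochondrial stress, fell by 0.82 (SE 0.10) with shLITATS1-1 and 0.45 (SE 0.095) with shLITATS1-2. PPP1R15B, a partner of the eIF2 phosphatase, fell by 0.30 (SE 0.043) with shLITATS1-1 and 0.65 (SE 0.044) with shLITATS1-2, and GCN1, which helps the amino acid sensor kinase, by 0.25 (SE 0.033) with shLITATS1-1 and 0.18 (SE 0.033) with shLITATS1-2. EIF2B2 fell by 0.12 (SE 0.051) with shLITATS1-1 and 0.56 (SE 0.052) with shLITATS1-2, EIF2B3 by 0.27 (SE 0.064) with shLITATS1-1, and EIF2AK2, the RNA-sensing kinase, by 0.28 (SE 0.037) with shLITATS1-2. Of 9 tested further folate genes, 5 fell and 2 rose with shLITATS1-1, and 4 fell and 1 rose with shLITATS1-2. SHMT1, the cytosolic counterpart of SHMT2, fell by 0.60 (SE 0.046) with shLITATS1-1 and 0.44 (SE 0.045) with shLITATS1-2, and MTHFD1 by 0.27 (SE 0.034) with shLITATS1-1 and 0.50 (SE 0.035) with shLITATS1-2. GLDC, of glycine cleavage, rose by 0.22 (SE 0.056) with shLITATS1-1 and fell by 0.50 (SE 0.060) with shLITATS1-2.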
